A study of Mactra quadrangularis with 9 samples.

Results

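Aminoacyl-tRNA synthetases, also called tRNA ligases, are the enzymes that join each amino acid to its transfer RNA, the charging step that supplies the ribosome. Animal cells need synthetases in the cytosol, for messages of the nuclear genome, and in mitochondria, for the few proteins made from mitochondrial DNA. The enzymes of both compartments are encoded in the nucleus. In vertebrates several cytosolic synthetases sit together with scaffold proteins in a multisynthetase complex, and tRNAs left uncharged activate the kinase GCN2, which leads to the transcription factor ATF4, a known activator of many cytosolic synthetase genes and of asparagine synthetase.

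The synthetase genes were read here in gill of the clam Mactra quadrangularis (Mactra veneriformis in the series text). They were taken by their annotation, as genes whose description contains "--tRNA ligase" or "tRNA synthetase" and whose mean FPKM (the authors' level, fragments per gene scaled for gene length and library size) over the 9 libraries was at least 1. The description matched 36 of 24722 genes and the level kept 35 of them. The valine--tRNA ligase Mve14G008310, at a mean FPKM of 1.1, lay just inside the minimum, and the mitochondrial serine--tRNA ligase Mve02G001460, at 0.406, was the gene left out. Of the 35 genes, 12 are described as mitochondrial and 23 are not, 13 of these being called cytoplasmic and 10 carrying no compartment. The 23 are written below as the cytosolic class, which rests on the wording of the descriptions and not on a measured location. No compartment is stated for the glycine, lysine, glutamine and glutamate/proline genes or for the phenylalanine alpha and beta subunits. The same holds for both valine genes (Mve03G009060 and Mve14G008310), the serine-like gene Mve14G011190 and Mve02G012100. No glycine or lysine gene is described as mitochondrial. The class can therefore hold enzymes that also or only serve mitochondria. They cover 18 amino acid names with the bifunctional glutamate/proline enzyme counted once, and the mitochondrial class covers 10. An EC number of the tRNA ligases (6.1.1) is given for 34 of the 35; the exception, the prolyl-tRNA synthetase associated domain-containing protein Mve02G012100, is caught by the words of its description and is not called a ligase there. The genes lie on 15 chromosomes.

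The study asked how the gill transcriptome responds to low oxygen. Clams were kept for 24 h at 7.5 mg/L dissolved oxygen, the aerated control, or at 4 or 2 mg/L, reached by bubbling nitrogen, and all groups were unfed at about 20 °C and a salinity of 27. Each oxygen level has 3 libraries of poly(A)-selected RNA. The labels give no age, sex or strain of the clams. Nor do they tie each library to its own animal or tank, so the p-values rest on library-to-library spread that may be purely technical. The 2 low-oxygen groups are compared with the same 3 control libraries.

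Library totals ran from 26994566 to 32246147 counts, and the 35 genes took 0.194% to 0.199% of them at 7.5 mg/L, 0.218% to 0.229% at 4 mg/L and 0.22% to 0.229% at 2 mg/L. Summed markers of cilia and of other tissues moved with oxygen. Summed CPM (counts scaled to a common library size by TMM, edgeR's trimmed mean of log ratios) of 23 muscle genes was 3270 to 3370 at 7.5 mg/L, 3100 to 3340 at 4 mg/L and 10200 to 12500 at 2 mg/L. The corresponding sum of 75 cilia genes, which mark the ciliated gill surface, was 8860 to 8930, 7660 to 7760 and 8080 to 8150, that of 29 digestive gland genes 2900 to 2950, 2910 to 2970 and 2600 to 2660, and that of 12 mantle and shell genes 205 to 219, 128 to 136 and 221 to 240. Of the 29 muscle genes matched at any level, 2 had no count in the 7.5 mg/L group, none were at 0 throughout the 4 mg/L group and 2 had no count at 2 mg/L; in the same order of groups the genes without a count numbered 0, 2 and 1 of 78 for cilia, 7, 3 and 6 of 42 for digestive gland, and 10, 4 and 18 of 36 for mantle and shell. Single markers went both ways. At 2 mg/L 13 of the 23 muscle genes were called higher than the control and 5 lower, with a median of 1.59-fold. For cilia 20 were higher and 35 lower, for digestive gland 6 and 15, and for mantle and shell 4 and 4. At 4 mg/L, in the same order of lists, they numbered 9 and 11, 13 and 41, 13 and 9, and 5 and 3. Of all genes 31.5% and 32.0% were called at 2 mg/L, 35.4% and 34.5% at 4 mg/L. The part of tissue makeup in the values below was not tested. In bulk tissue, fewer cells of a type and less RNA per cell cannot be told apart.

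The cytosolic class was much the more abundant. Its mean FPKM ran from 1.1 to 222 with a median of 21.8, against 1.49 to 6.16 with a median of 3.14 for the mitochondrial class and a median of 5.66 over all 15397 genes with a mean FPKM of at least 1. The lower mitochondrial levels came with a wider spread: the median coefficient of variation between libraries of a group was 16.8% in the mitochondrial class and 5.19% in the cytosolic class, and the lowest raw counts were 25 and 78. Among the lowest values of the deposited table the counts 2 and 4 were more frequent (2649 and 3567 values) than 1 and 3 (1855 and 1914), so a count may not stand for 1 independent fragment. Small changes could therefore be called more readily in the cytosolic genes.

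The most abundant synthetase transcript was the cysteine--tRNA ligase Mve16G008480 (chromosome 16, 23248308 to 23287495, minus strand), at a mean FPKM of 222. Its CPM was 458, 473 and 471 at 7.5 mg/L, 318, 316 and 317 at 4 mg/L, then 840, 806 and 859 at 2 mg/L. The 3 groups did not overlap, with the lowest values at the intermediate oxygen level and the highest at the lowest. It fell 1.47-fold at 4 mg/L (edgeR adjusted p = 2.67e-10) and rose 1.79-fold at 2 mg/L (edgeR adjusted p = 1.67e-12). The description calls this gene model partial. This 1 gene made up 26.1% to 26.7% of the class's summed CPM at 7.5 mg/L, 14.6% to 15.1% at 4 mg/L and 34.9% to 35.4% at 2 mg/L. The class sum was 1760 to 1800 CPM at 7.5 mg/L, 2100 to 2160 at 4 mg/L and 2310 to 2430 at 2 mg/L. Without the cysteine gene the order of the low-oxygen groups turned over, with 1300 to 1330, 1780 to 1850 and 1510 to 1570 CPM. The pattern of lower at 4 mg/L and higher at 2 mg/L was found in 4.8% of all genes.

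Next in FPKM came the bifunctional glutamate/proline--tRNA ligase Mve02G006020 (chromosome 2, 18397785 to 18441157, plus strand), which charges both amino acids and belongs to the vertebrate multisynthetase complex. It measured 275, 275 and 280 CPM at 7.5 mg/L, 363, 382 and 356 at 4 mg/L, then 367, 353 and 364 at 2 mg/L. Both low-oxygen groups lay above the control libraries and overlapped each other. The rise was 1.33-fold at 4 mg/L (edgeR adjusted p = 5.51e-08) and 1.31-fold at 2 mg/L (edgeR adjusted p = 1.67e-07). The 2 most abundant mitochondrial transcripts, those of the leucine and asparagine enzymes, had a mean FPKM of 6.16 and 5.26. The mitochondrial leucine--tRNA ligase Mve06G005960 was at 18.6, 20.2 and 21.3 CPM at 7.5 mg/L, 19.6, 25.1 and 17.6 at 4 mg/L, then 18.4, 18.3 and 14.4 at 2 mg/L, and passed the test in none of the 3 comparisons.

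**Figure D1:**
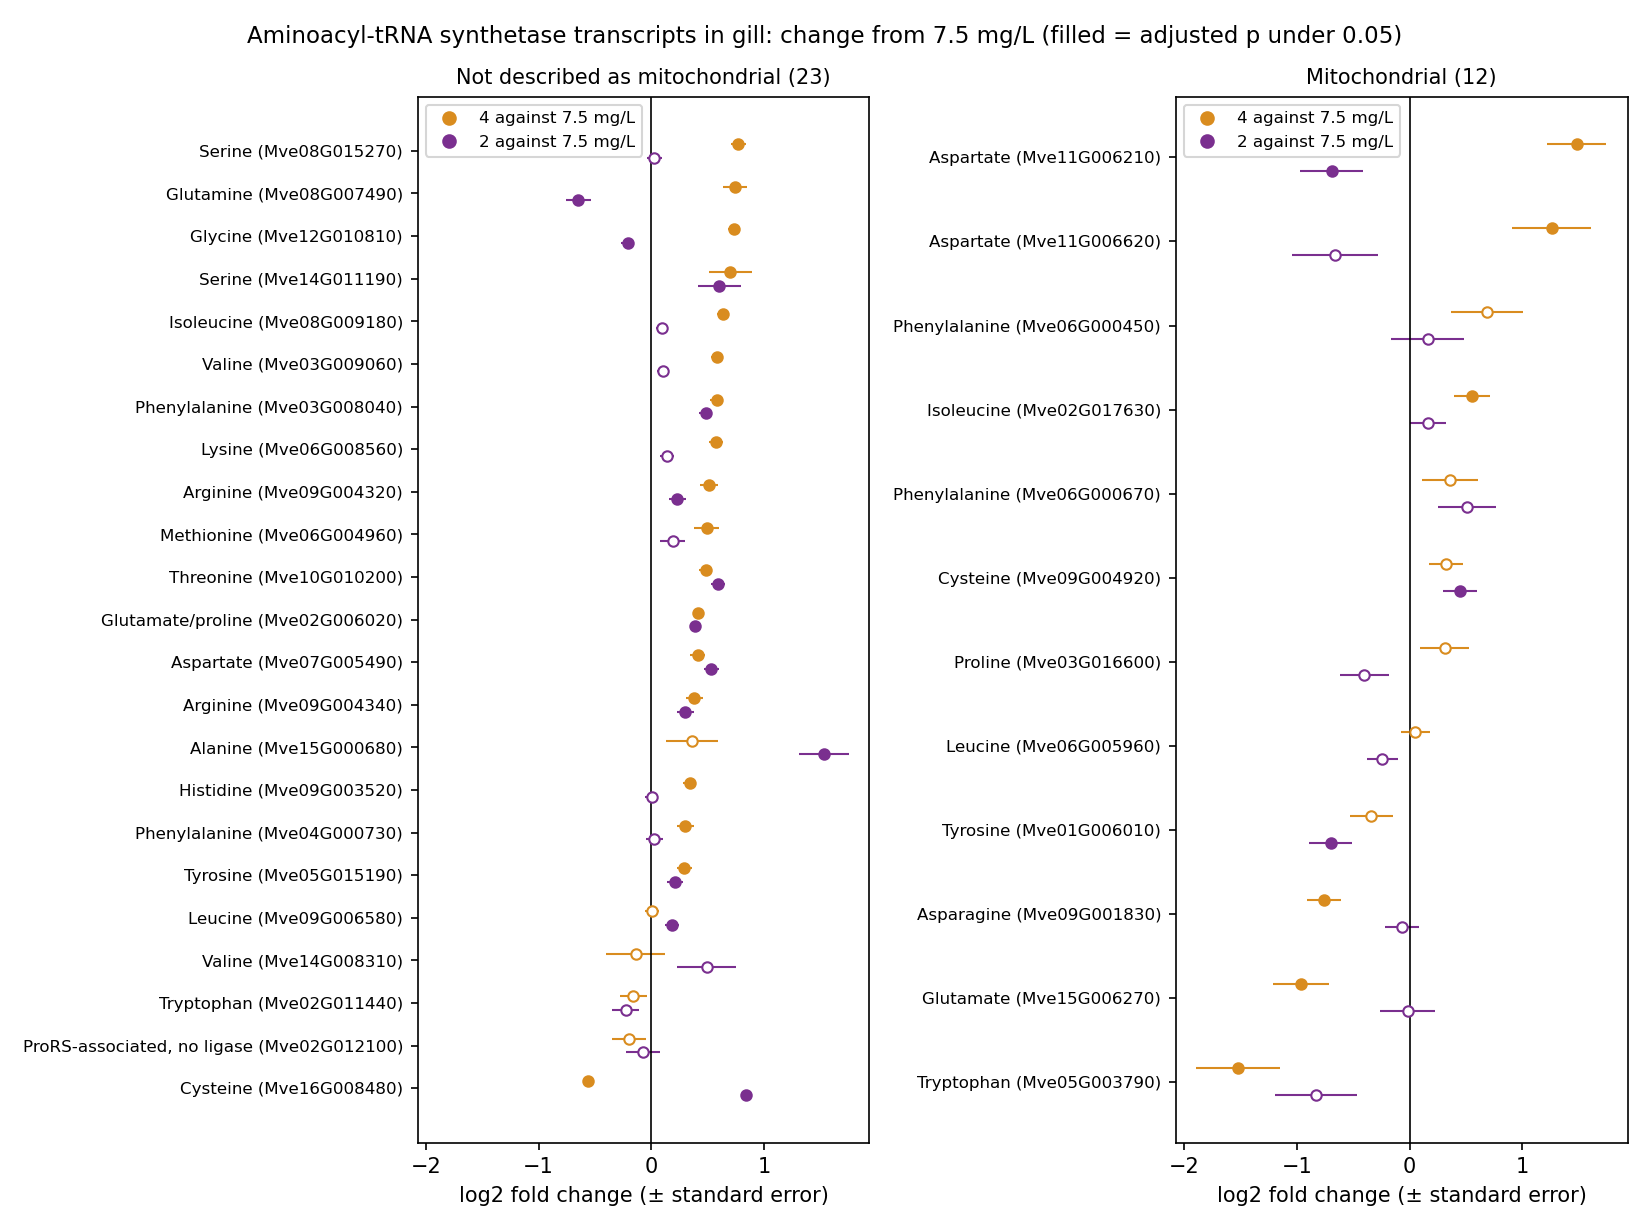
Log2 fold change (± standard error, edgeR) of each of the 35 genes at 4 and at 2 mg/L against the same 3 libraries at 7.5 mg/L, cytosolic class on the left and mitochondrial class on the right, filled where adjusted p was under 0.05. At 4 mg/L 17 of 23 cytosolic genes are filled to the right of 0 and the cysteine gene alone is filled to the left, while 3 mitochondrial genes are filled on each side.

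At 4 mg/L the cytosolic synthetases rose broadly and by small steps. Of the 23 genes, 17 (73.9%) rose and 1 (4.35%) fell, against 35.4% and 34.5% of all genes tested, and the class median was 0.41 on the log2 scale against -0.0047 for all genes. Most of the transcriptome moved here: 69.9% of all genes were called either way, so that 18 called of 23 is close to the background and the lean towards higher values is what sets the count apart. No cytosolic gene reached 2-fold, a size that 32.6% of all genes passed with a call. The 17 that rose did so with no overlap between the groups, as did the cysteine gene that fell. Groups did not overlap in 74.2% of all genes.

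The largest rise of the class was that of the cytoplasmic serine--tRNA ligase Mve08G015270 (chromosome 8, 46339743 to 46347348, plus strand). It measured 48.9, 54.3 and 54.6 CPM at 7.5 mg/L, 91.7, 89.3 and 88.2 at 4 mg/L, then 51.3, 51.6 and 57.6 at 2 mg/L. Only the 4 mg/L libraries stood apart, by 1.70-fold over the control (edgeR adjusted p = 1.57e-08) and 1.68-fold over 2 mg/L (edgeR adjusted p = 3.08e-08). The glutamine--tRNA ligase Mve08G007490, of the vertebrate complex, was at 13.6, 16.3 and 15.9 CPM at 7.5 mg/L, 24.7, 26.6 and 25.3 at 4 mg/L, then 10.2, 9.29 and 9.71 at 2 mg/L. Here the 3 groups were separate, with 4 mg/L highest and 2 mg/L lowest. It rose 1.67-fold at 4 mg/L (edgeR adjusted p = 1.16e-05) and fell 1.57-fold at 2 mg/L (edgeR adjusted p = 9.45e-05).

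The glycine--tRNA ligase Mve12G010810 (chromosome 12, 37868411 to 37888444, plus strand) had the same order of groups. Its CPM was 98.1, 105 and 103 at 7.5 mg/L, 161, 167 and 179 at 4 mg/L, then 86.8, 84.7 and 94.0 at 2 mg/L. No group overlapped another. The gene rose 1.65-fold at 4 mg/L (edgeR adjusted p = 4.01e-09) and fell 1.15-fold at 2 mg/L (edgeR adjusted p = 0.004). The serine--tRNA ligase-like gene Mve14G011190, a minor transcript beside Mve08G015270, was at 5.26, 3.59 and 4.76 CPM at 7.5 mg/L, 6.89, 8.24 and 6.93 at 4 mg/L, then 6.18, 7.39 and 7.08 at 2 mg/L. Both low-oxygen groups lay above the control, at 1.62-fold (edgeR adjusted p = 0.00371) and 1.52-fold (edgeR adjusted p = 0.0116). The call at 2 mg/L was lost with scaling to total counts and without the second control library. The isoleucine--tRNA ligase Mve08G009180 was at 87.3, 90.8 and 87.1 CPM at 7.5 mg/L, 135, 139 and 135 at 4 mg/L, then 94.6, 95.3 and 92.1 at 2 mg/L. At 4 mg/L it stood 1.54-fold above the control (edgeR adjusted p = 3.55e-09), while its 1.06-fold difference at 2 mg/L did not pass (edgeR adjusted p = 0.112).

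The other 12 cytosolic genes that rose at 4 mg/L did so by 1.22-fold to 1.5-fold. They were the glutamate/proline gene, both arginine genes, and the aspartate, phenylalanine alpha, phenylalanine beta, threonine, histidine, lysine, tyrosine, methionine and valine (Mve03G009060) genes. The 5 without a call were the leucine gene Mve09G006580, the tryptophan gene Mve02G011440, the alanine gene Mve15G000680, the second valine gene Mve14G008310 and Mve02G012100. Enzymes that belong to the complex in vertebrates (glutamate/proline, isoleucine, leucine, methionine, glutamine, lysine, both arginine genes and aspartate) numbered 9, with the 2 arginine genes counted separately. Of these 8 (88.9%) rose at 4 mg/L and 0 fell, with a median of 0.49 over the 9. Of the 14 cytosolic genes outside the complex 9 (64.3%) rose and 1 (7.14%) fell, with a median of 0.35. Grouped by catalytic fold, a split chosen after the values were seen, 9 of 10 class II genes rose and none fell, and 7 of 11 class I genes rose and 1 fell. The bifunctional gene, which joins both folds, rose. Over all genes tested 35.4% rose and 34.5% fell at 4 mg/L. Whether these subsets differ from each other was not tested.

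**Figure D2:**
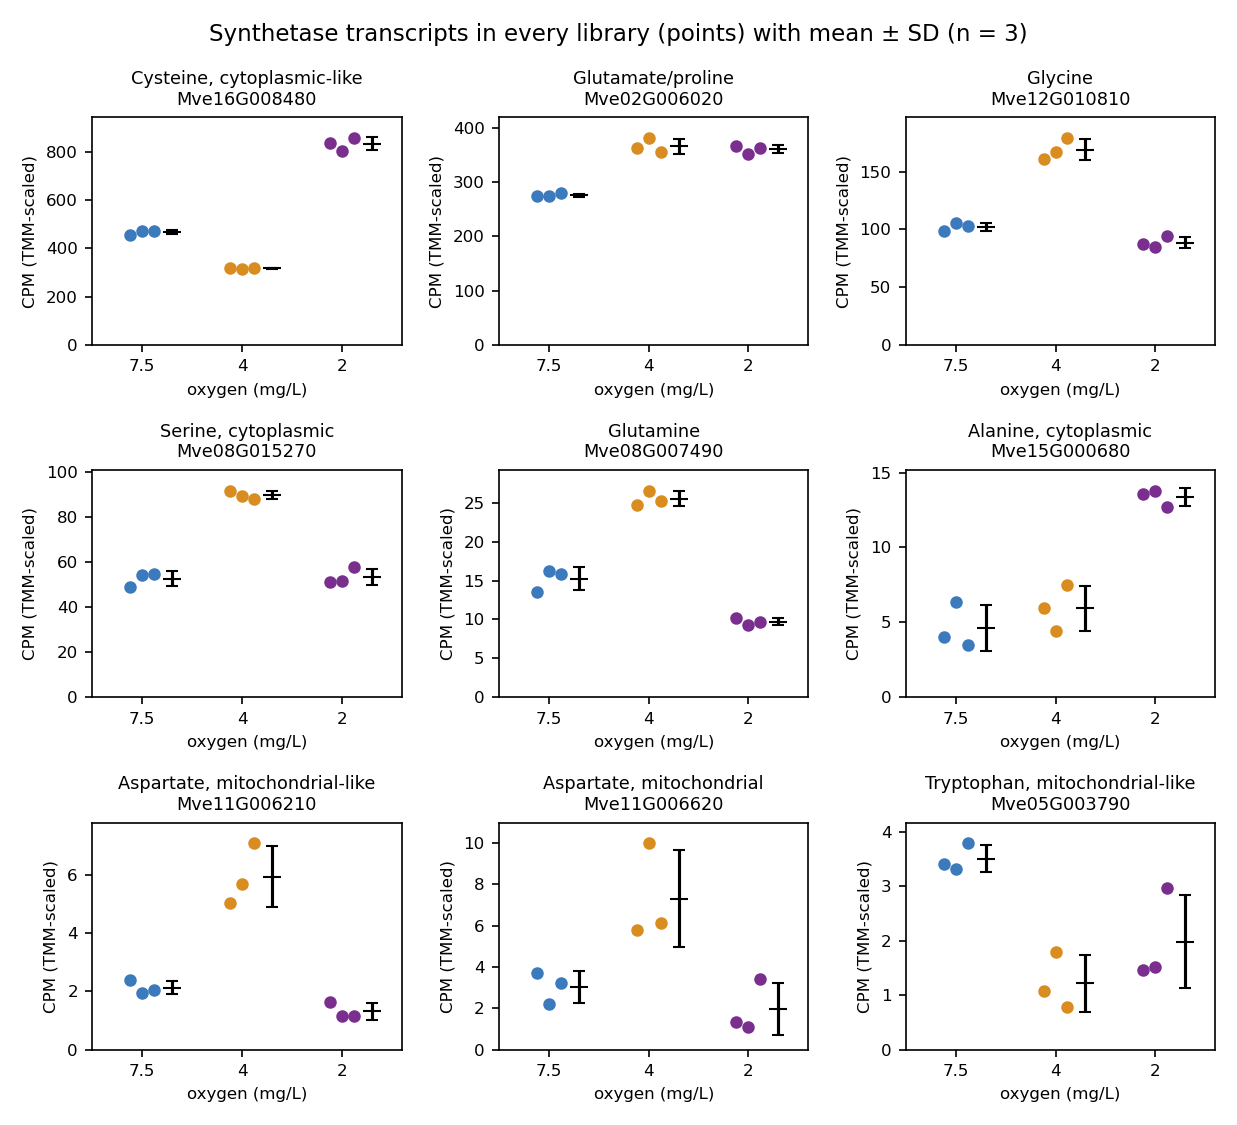
CPM (TMM-scaled) of 9 synthetase genes in every library by oxygen level, points for libraries and black marks for the mean ± SD of 3. The cysteine gene is lowest at 4 mg/L and highest at 2 mg/L, the serine, glycine, glutamine and both mitochondrial aspartate genes are highest at 4 mg/L, and the alanine gene is highest at 2 mg/L.

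At 4 mg/L 3 of 12 mitochondrial genes rose and 3 fell, 25% each, beside 35.4% and 34.5% of all genes. The fold change was positive in 8 of the 12, called or not, and the class median was 0.32. In all, the 6 calls are 50.0% of the class beside the background of 69.9%. Whether the classes differ was not tested, and the wider spread of the mitochondrial genes bears on their count. The 6 called changes ran from 1.46-fold to 2.87-fold, those of the 18 called cytosolic genes from 1.22-fold to 1.70-fold. Both ranges hold called genes only. With the wider spread small mitochondrial changes were less readily called, so the ranges do not compare the size of change in the classes. The aspartate--tRNA ligase, mitochondrial-like gene Mve11G006210 (chromosome 11, 17755176 to 17774943, plus strand) was at 2.38, 1.94 and 2.06 CPM at 7.5 mg/L, 5.04, 5.67 and 7.08 at 4 mg/L, then 1.64, 1.14 and 1.16 at 2 mg/L. The 3 groups were separate, with 4 mg/L highest. It rose 2.79-fold at 4 mg/L (edgeR adjusted p = 8.25e-05) and fell 1.61-fold at 2 mg/L (edgeR adjusted p = 0.0406), the latter call being lost in 8 of the 17 alternative analyses that held the gene. The second mitochondrial aspartate gene, Mve11G006620, lies 695 kb away with 29 genes between. It was at 3.72, 2.2 and 3.23 CPM at 7.5 mg/L, 5.78, 10 and 6.12 at 4 mg/L, then 1.33, 1.11 and 3.40 at 2 mg/L. The 4 mg/L libraries were again above all others, 2.40-fold over the control (edgeR adjusted p = 0.00437), and the groups at 7.5 and 2 mg/L overlapped (edgeR adjusted p = 0.134). Each of the 2 copies lies between a gene described as a Piwi protein (PIWIa or Piwil1) and a serine/threonine/tyrosine-interacting-like protein 1 gene. Both are counted among the 3 that rose. Mean FPKM at 7.5, 4 and 2 mg/L was 1.21, 3.25 and 0.653 for Mve11G006210 and 1.3, 3.0 and 0.718 for Mve11G006620. The 4 mg/L group carried Mve11G006210 over the minimum of 1, so its rise is not independent of the level filter. Outside that group Mve11G006620 lay near the minimum. Whether they are separate genes or 1 region assembled 2 times was not tested, nor whether the deposited counts share reads between them.

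The mitochondrial tryptophan--tRNA ligase Mve05G003790 went the other way. It was at 3.40, 3.32 and 3.79 CPM at 7.5 mg/L, 1.08, 1.80 and 0.78 at 4 mg/L, then 1.47, 1.52 and 2.96 at 2 mg/L. All low-oxygen libraries were below the control; the 4 mg/L group fell 2.87-fold (edgeR adjusted p = 0.00158) and the 2 mg/L difference of 1.78-fold did not pass (edgeR adjusted p = 0.0544). The mitochondrial glutamate--tRNA ligase Mve15G006270, which in animal mitochondria also charges the glutamine tRNA with glutamate, was at 3.68, 4.38 and 5.28 CPM at 7.5 mg/L, 1.98, 2.82 and 2.06 at 4 mg/L, then 4.95, 4.32 and 3.92 at 2 mg/L. The 4 mg/L libraries were the lowest, 1.95-fold under the control (edgeR adjusted p = 0.00246). The mitochondrial asparagine--tRNA ligase Mve09G001830 showed the same order, with 12.5, 17.1 and 14.3 CPM at 7.5 mg/L, 8.59, 7.75 and 9.67 at 4 mg/L, then 12.8, 13.4 and 16.0 at 2 mg/L. It fell 1.69-fold at 4 mg/L (edgeR adjusted p = 0.000261), and its 2 mg/L libraries overlapped the control. The mitochondrial isoleucine gene Mve02G017630 rose 1.46-fold at 4 mg/L (edgeR adjusted p = 0.00486). The mitochondrial proline, tyrosine, cysteine and leucine genes and both phenylalanine genes were not called, with log2 differences from -0.34 for tyrosine to 0.69 for Mve06G000450.

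At 2 mg/L fewer cytosolic synthetases differed from the control. Of the 23 genes, 11 (47.8%) rose and 2 (8.70%) fell, against 31.5% and 32.0% of all genes tested, with a class median of 0.19 against -0.032. The 13 called are 56.5% of the class, below the 63.5% of all genes called either way. The groups did not overlap in 11 genes that were higher and 3 that were lower, beside 68.3% of all genes. The higher count rests on the scaling. With library totals in place of TMM, which lowers the median log2 change of all genes by 0.2, 6 cytosolic genes were called higher and 5 lower and the class median was -0.014; limma on log2(FPKM + 1) gave 7 and 6. In the same libraries the muscle gene sum was 10200 to 12500 CPM against 3270 to 3370 in the control, and its part in these counts was not tested.

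The alanine--tRNA ligase Mve15G000680 (chromosome 15, 2036953 to 2065841, plus strand) had the largest rise of the class at 2 mg/L. It was at 4.03, 6.35 and 3.49 CPM at 7.5 mg/L, 5.93, 4.43 and 7.46 at 4 mg/L, then 13.6, 13.8 and 12.7 at 2 mg/L. The 2 mg/L libraries lay above all others, 2.88-fold over the control (edgeR adjusted p = 1.59e-05) and 2.25-fold over 4 mg/L (edgeR adjusted p = 0.000188). The threonine--tRNA ligase Mve10G010200 was at 83.8, 87.7 and 85.7 CPM at 7.5 mg/L, 121, 118 and 120 at 4 mg/L, then 143, 121 and 124 at 2 mg/L. Both low-oxygen groups were above the control, by 1.40-fold (edgeR adjusted p = 1.76e-06) and 1.51-fold (edgeR adjusted p = 2.03e-07). The aspartate--tRNA ligase of the cytosol, Mve07G005490, rose 1.44-fold at 2 mg/L (edgeR adjusted p = 3.06e-06), and the phenylalanine alpha subunit Mve03G008040 rose 1.40-fold (edgeR adjusted p = 1.59e-06). The beta subunit of the same enzyme, Mve04G000730, was at 59.1, 62.5 and 59.6 CPM at 7.5 mg/L, 78.4, 77.0 and 66.8 at 4 mg/L, then 65.4, 55.7 and 63.3 at 2 mg/L. Its groups at 7.5 and 2 mg/L overlapped, with a 1.02-fold difference (edgeR adjusted p = 0.783). Calls for the tyrosine gene, both arginine genes, the serine-like gene and the leucine gene at 2 mg/L were lost in at least 1 alternative. Those of the cysteine, glutamate/proline, aspartate, threonine, phenylalanine alpha, alanine, glycine and glutamine genes were kept in every alternative that held the gene.

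Among the mitochondrial genes 1 of 12 (8.33%) rose and 2 (16.7%) fell at 2 mg/L, beside 31.5% and 32.0% of all genes, with a class median of -0.15. With library totals none was called higher and 5 lower. The tyrosine--tRNA ligase, mitochondrial-like gene Mve01G006010 was at 6.38, 7.11 and 7.25 CPM at 7.5 mg/L, 5.71, 4.37 and 6.27 at 4 mg/L, then 4.30, 4.01 and 4.52 at 2 mg/L. The 2 mg/L libraries were below every control library and the fall was 1.62-fold (edgeR adjusted p = 0.00505). The mitochondrial cysteine--tRNA ligase Mve09G004920 was at 9.12, 10.2 and 7.72 CPM at 7.5 mg/L, 10.5, 12.7 and 10.5 at 4 mg/L, then 14.1, 11.9 and 11 at 2 mg/L. Its rise at 2 mg/L was 1.37-fold (edgeR adjusted p = 0.0162) and was lost in 5 alternatives, among them those without the third control library and without the first 2 mg/L library.

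Set directly against each other, the 2 mg/L libraries had fewer synthetase transcripts than those at 4 mg/L in most called genes. Of the 23 cytosolic genes 4 (17.4%) were higher at 2 mg/L and 10 (43.5%) lower, against 31.6% and 32.1% of all genes tested, with 63.7% called either way. The groups were separate in 4 genes that were higher and 11 that were lower, beside 68.0% of all genes. The class median was -0.094 and that of all genes -0.024. With library totals 2 were higher and 14 lower. The 4 higher genes were the cysteine gene at 2.63-fold (edgeR adjusted p = 3.05e-15), the alanine gene, the leucine gene Mve09G006580 at 1.13-fold (edgeR adjusted p = 0.0262) and the valine gene Mve14G008310 at 1.55-fold (edgeR adjusted p = 0.0425). The leucine and valine calls were lost in 7 and 10 of the alternatives, which left 2 of the 4 without the first 4 mg/L library or the third 2 mg/L library. Mean FPKM of the valine gene was 1.06 at 7.5 mg/L, 0.924 at 4 mg/L and 1.31 at 2 mg/L. The 2 mg/L group carried it over the minimum of 1. The glutamine gene was 2.62-fold lower at 2 than at 4 mg/L (edgeR adjusted p = 1.12e-08) and the glycine gene 1.91-fold lower (edgeR adjusted p = 2.18e-10). Of the vertebrate complex enzymes 5 of 9 (55.6%) were lower and 1 (11.1%), leucine, was higher, beside 32.1% and 31.6% of all genes.

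The mitochondrial class had 2 genes (16.7%) higher and 4 (33.3%) lower at 2 than at 4 mg/L, beside 31.6% and 32.1% of all genes. The mitochondrial aspartate genes were 4.5-fold (Mve11G006210, edgeR adjusted p = 2.73e-06) and 3.79-fold lower (Mve11G006620, edgeR adjusted p = 0.000233). The mitochondrial glutamate gene was 1.92-fold higher (edgeR adjusted p = 0.00338), and the mitochondrial asparagine gene 1.62-fold higher (edgeR adjusted p = 0.000714). The lower calls of the mitochondrial isoleucine and proline genes were each lost when 1 of several libraries was left out.

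Read over the 3 oxygen levels, 10 of the 23 cytosolic genes were called higher at 4 mg/L than at both other levels, which is 43.5% beside 20.3% of all genes. They were the serine (Mve08G015270), isoleucine, histidine, lysine, valine (Mve03G009060), methionine, phenylalanine beta, glycine, glutamine and arginine (Mve09G004320) genes. Higher than the control at both levels were 8 of 23, beside 20.3% of all genes. This count rests on the scaling. With library totals the tyrosine gene, both arginine genes and the serine-like gene (Mve14G011190) lost their call at 2 mg/L. All but the serine-like gene also lost it with both limma settings. The share of all genes was not computed with these settings. Of the 8 genes, 7 were not called between 2 and 4 mg/L, namely the glutamate/proline, aspartate, threonine, phenylalanine alpha, tyrosine, arginine (Mve09G004340) and serine-like (Mve14G011190) genes. The 2 arginine genes lie 68.9 kb apart on the plus strand of chromosome 9, with 1 gene between. Mve09G004320 spans 18601 bp and Mve09G004340 5985 bp, and both are counted in the numbers for the class. They fell in different groups. Mve09G004320 was at 62.3, 64.3 and 60.2 CPM at 4 mg/L against 54.4, 44.6 and 54.9 at 2 mg/L (1.21-fold lower, edgeR adjusted p = 0.00408). Mve09G004340 was at 40.8, 43.4 and 43.8, and 41.0, 37.8 and 42.1 (1.06-fold lower, edgeR adjusted p = 0.352). With library totals and both limma settings 4 of the 7 were also called lower at 2 than at 4 mg/L. These were the glutamate/proline, phenylalanine alpha, tyrosine and arginine Mve09G004340 genes, so the split of the arginine genes depends on the scaling. The test of the difference between the 2 arginine genes was not run. Read sharing between them, and whether they are 2 genes or parts of 1, was not tested. Higher at 4 mg/L and lower at 2 mg/L than the control were 2 cytosolic genes, glycine and glutamine, and 1 mitochondrial gene, aspartate Mve11G006210, beside 4.87% of all genes. Called lower at 4 mg/L and higher at 2 mg/L was the cysteine gene alone among the 35. No call in any comparison was made for 2 of 23 cytosolic and 3 of 12 mitochondrial genes, beside 12.5% of all genes.

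For 9 amino acids a cytosolic and a mitochondrial ligase were both measured, in 13 pairs of genes, and the ratio of their FPKM is a length-scaled quantity that does not depend on how libraries are scaled. The cytosolic gene was the more abundant in every library and pair. Against the control the ratio was higher with no overlap in 3 pairs, lower in 4 and overlapping in 6 at 4 mg/L. At 2 mg/L it was higher in 7 pairs, lower in none and overlapping in 6. Some separations at 2 mg/L were narrow, with a lowest ratio of 5.27 against a highest control ratio of 5.20 for tryptophan. For glutamate both were 30.6 after rounding. The share for other pairs of genes was not computed, and single genes did not overlap in 74.2% (4 mg/L) and 68.3% (2 mg/L) of all genes. Pairs that share a gene are not independent, and 3 against 3 libraries cannot give an exact two-sided permutation p below 0.1, so no p is given for single ratios.

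The pairs differed in the order of the oxygen levels. The ratio of the cytosolic aspartate gene Mve07G005490 to the mitochondrial Mve11G006210 was 33.4, 37.0 and 39.9 at 7.5 mg/L, 19.9, 19.3 and 14.1 at 4 mg/L, then 64.1, 98.6 and 104 at 2 mg/L. The cysteine ratio (Mve16G008480 to Mve09G004920) was 66.7, 61.8 and 81.0 at 7.5 mg/L, 40.3, 33.0 and 40.0 at 4 mg/L, then 79.5, 90.2 and 104 at 2 mg/L, so that the groups at 7.5 and 2 mg/L overlapped. In both pairs the lowest ratios were those at 4 mg/L. Glutamate (Mve02G006020 to Mve15G006270) had its highest ratios at 4 mg/L, with 30.6, 25.8 and 21.7 at 7.5 mg/L, 76.0, 56.2 and 71.5 at 4 mg/L, then 30.6, 33.6 and 38.3 at 2 mg/L. Tryptophan (Mve02G011440 to Mve05G003790) was at 5.20, 5.11 and 4.99 at 7.5 mg/L, 16.9, 8.78 and 18.7 at 4 mg/L, then 10.8, 9.58 and 5.27 at 2 mg/L. Tyrosine (Mve05G015190 to Mve01G006010) was at 3.61, 2.85 and 3.07 at 7.5 mg/L, 4.62, 6.03 and 4.38 at 4 mg/L, then 5.49, 6.67 and 5.62 at 2 mg/L. In the glutamate, tryptophan and tyrosine pairs all low-oxygen libraries had higher ratios than all control libraries. For glutamate the groups at 7.5 and 2 mg/L met at 30.6 after rounding. Isoleucine gave overlapping groups, from 7.79 to 9.48 at 7.5 mg/L, 8.00 to 9.60 at 4 mg/L and 7.27 to 9.55 at 2 mg/L.

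**Figure D3:**
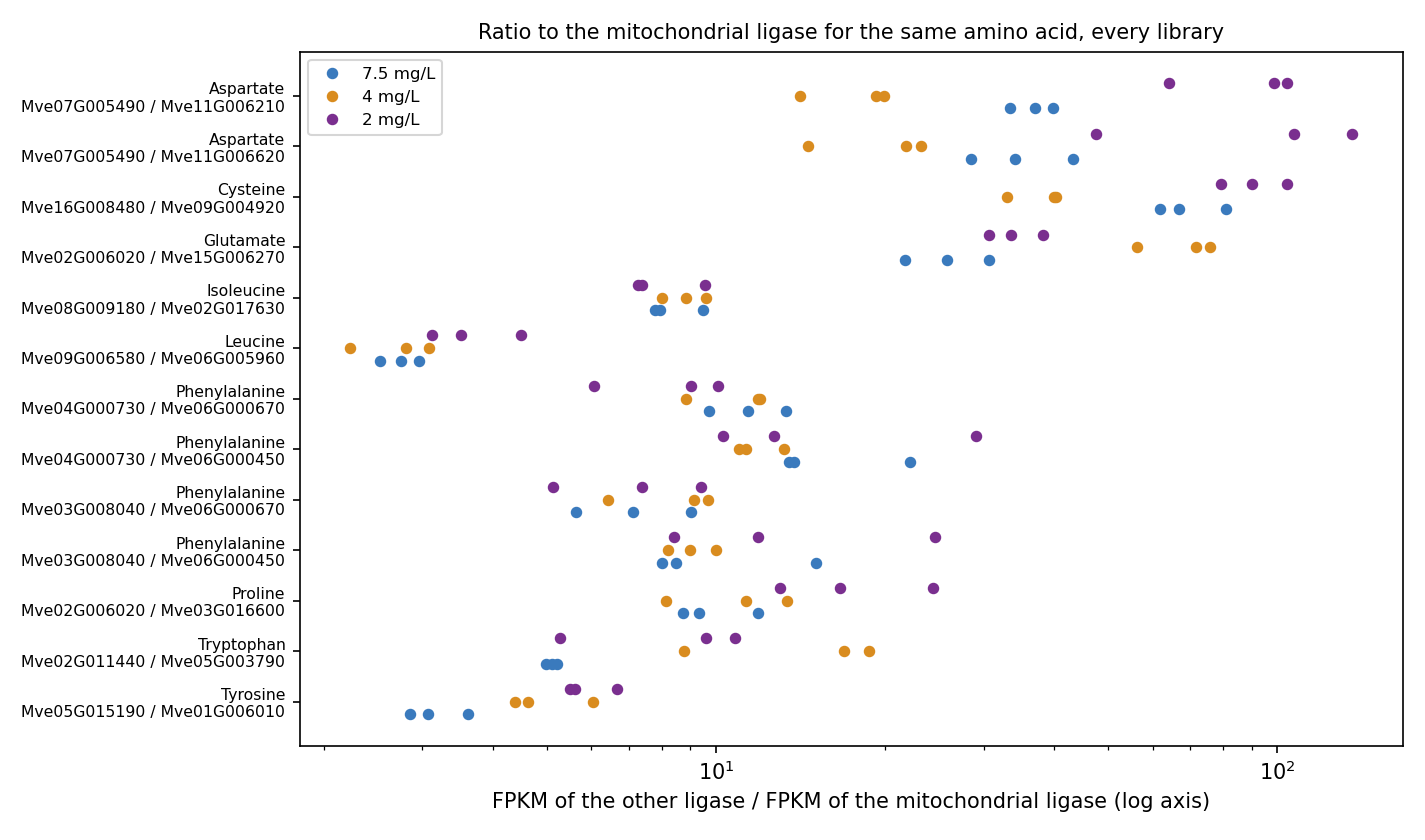
Ratio of the FPKM of the cytosolic ligase to that of the mitochondrial ligase for the same amino acid on a log axis, each point 1 library, for 13 pairs of genes. Aspartate and cysteine have their lowest ratios at 4 mg/L (14.1 to 19.9 and 33.0 to 40.3 for Mve11G006210 and Mve09G004920), and glutamate its highest there, at 56.2 to 76.0.

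Proteins that work beside the synthetases moved in both directions. Of 14 genes listed as charging partners (complex scaffold, amidotransferase, editing and hydrolase proteins, elongation factor Tu), 3 rose and 4 fell at 4 mg/L and 4 rose and 3 fell at 2 mg/L, with medians of -0.19 and -0.082. The called genes are 50.0% of the list at each level, below the 69.9% and 63.5% of all genes. The scaffold gene described as aminoacyl tRNA synthase complex-interacting multifunctional protein 2-like, Mve13G003550, was at 24.4, 25 and 29.2 CPM at 7.5 mg/L, 61.6, 62.1 and 55.6 at 4 mg/L, then 41.9, 37.4 and 32.6 at 2 mg/L. The groups were separate, with 4 mg/L highest. It rose 2.28-fold at 4 mg/L (edgeR adjusted p = 8.98e-09) and 1.42-fold at 2 mg/L (edgeR adjusted p = 0.00023), so its rise at 4 mg/L was larger than that of any of the 8 complex enzymes that rose with it. Prolyl-tRNA editing protein ProX, Mve16G011200, whose bacterial relatives clear mischarged proline tRNA, was at 201, 201 and 204 CPM at 7.5 mg/L, 185, 182 and 169 at 4 mg/L, then 410, 425 and 455 at 2 mg/L. Like the cysteine ligase it was lowest at 4 mg/L and highest at 2 mg/L, a fall of 1.13-fold (edgeR adjusted p = 0.00258) and a rise of 2.13-fold (edgeR adjusted p = 2.7e-12).

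The mitochondrial amidotransferase turns glutamate on the glutamine tRNA into glutamine, the step after the mitochondrial glutamate ligase. Its subunit C gene, Mve08G002450, was at 6.87, 8.46 and 7.72 CPM at 7.5 mg/L, 3.55, 3.04 and 3.50 at 4 mg/L, then 7.34, 4.94 and 5.92 at 2 mg/L. Only the 4 mg/L libraries lay below all control libraries, by 2.29-fold (edgeR adjusted p = 5.32e-05). Subunit A, Mve05G015370, was at 5.72, 6.61 and 6.84, then 3.27, 3.78 and 3.53, then 4.40, 2.94 and 3.88 CPM in the order of falling oxygen. It fell at both levels, by 1.81-fold (edgeR adjusted p = 0.00191) and 1.71-fold (edgeR adjusted p = 0.00483). Subunit B, Mve08G006070, was not called at 4 mg/L and rose at 2 mg/L.

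Of 23 genes listed under the amino acid response (eIF2-alpha kinases, asparagine synthetase, serine, proline and cysteine metabolism, amino acid transporters), 11 rose and 6 fell at 4 mg/L, and 12 rose and 4 fell at 2 mg/L. The medians were 0.33 and 0.51. The called genes are 73.9% and 69.6% of the list, near the 69.9% and 63.5% of all genes. No description matched the words set for ATF4, so that factor is not reported. Asparagine synthetase, Mve11G004020, was at 68.3, 77.2 and 76.8 CPM at 7.5 mg/L, 148, 141 and 145 at 4 mg/L, then 107, 108 and 106 at 2 mg/L. The groups were separate and in the same order as for the scaffold gene. Between the low-oxygen groups the 2 mg/L libraries were 1.35-fold lower (edgeR adjusted p = 1.82e-06). Of 2 genes described as eukaryotic translation initiation factor 2-alpha kinase 4 (GCN2), Mve02G002960 was at 4.38, 3.03 and 3.76 CPM at 7.5 mg/L, 17.5, 21.1 and 20.2 at 4 mg/L, then 9.28, 7.39 and 6.76 at 2 mg/L. It rose 5.27-fold at 4 mg/L (edgeR adjusted p = 2.14e-09) and 2.11-fold at 2 mg/L (edgeR adjusted p = 5.21e-05). Its mean FPKM was 0.674 at 7.5 mg/L, 3.41 at 4 mg/L and 1.24 at 2 mg/L. The 4 mg/L group, where it was highest, carried it over the minimum of 1, so its rise is not independent of the level filter. The other, Mve02G018740, was at 3.86, 5.85 and 4.43, then 2.22, 1.80 and 2.47, then 1.77, 1.76 and 3.00 CPM. It fell 2.18-fold (edgeR adjusted p = 0.00242) and 2.17-fold (edgeR adjusted p = 0.0031). Its mean FPKM was 2.18 at 7.5 mg/L, 0.954 at 4 mg/L and 0.874 at 2 mg/L, and the control group carried it over the minimum. The kinase copies moved apart, but each passed the level filter through the group where it was highest.

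Enzymes that make or use amino acids named above changed as well. Cystathionine beta-synthase, Mve07G010820, which starts the route from homocysteine to cysteine, was at 58.9, 56.5 and 61.1 CPM at 7.5 mg/L, 95.3, 95.0 and 87.7 at 4 mg/L, then 223, 217 and 215 at 2 mg/L. It rose at each step, 1.57-fold (edgeR adjusted p = 6.15e-09) and 3.70-fold (edgeR adjusted p = 7.86e-15) over the control. Mitochondrial serine hydroxymethyltransferase, Mve07G010830, which links serine and glycine, was at 0, 0.47 and 1.09 CPM at 7.5 mg/L, 5.04, 4.90 and 4.24 at 4 mg/L, then 0.341, 0.864 and 2.6 at 2 mg/L. The 4 mg/L libraries were above all others (edgeR adjusted p = 0.000806 against the control), and with 1 control library at 0 the fitted fold is not given. A gene for the small subunit of the large neutral amino acid transporter, Mve06G005120, was at 0.421, 0.794 and 0.470 CPM at 7.5 mg/L, 1.64, 2.82 and 4.12 at 4 mg/L, then 1.71, 1.69 and 2.72 at 2 mg/L. All low-oxygen libraries exceeded the control, by 5.03-fold (edgeR adjusted p = 0.000128) and 3.58-fold (edgeR adjusted p = 0.00141). Its mean FPKM was 0.418 at 7.5 mg/L, 2.07 at 4 mg/L and 1.35 at 2 mg/L, and the 4 mg/L group carried it over the minimum of 1. The cationic amino acid transporter 3-like gene Mve04G009550 was at 8.07, 6.14 and 7.60, then 3.55, 3.90 and 2.28, then 8.46, 8.91 and 9.27 CPM. It was lowest at 4 mg/L and was 2.73-fold higher at 2 than at 4 mg/L (edgeR adjusted p = 1.26e-05).

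Genes that process or modify tRNA, 56 in all, were split in direction. At 4 mg/L 16 (28.6%) rose and 18 (32.1%) fell, near the 35.4% and 34.5% of all genes, with a median of -0.079. At 2 mg/L 8 (14.3%) rose and 17 (30.4%) fell, beside 31.5% and 32.0% of all genes, with a median of -0.21. The largest falls were those of the tRNA (cytosine(38)-C(5))-methyltransferase-like gene Mve16G008880, which methylates the anticodon loop of some tRNAs. It was at 9.33, 9.58 and 9.28 CPM at 7.5 mg/L, 0.834, 0.682 and 0.811 at 4 mg/L, then 1.09, 0.829 and 1.68 at 2 mg/L. The control libraries stood far above both low-oxygen groups, 12.1-fold (edgeR adjusted p = 5.59e-09) and 7.87-fold (edgeR adjusted p = 5.57e-08). The tRNA (cytosine(34)-C(5))-methyltransferase Mve06G009710 was at 81.1, 86.3 and 83.1, then 19.7, 21.9 and 16.5, then 22.7, 17.3 and 18.7 CPM. It fell 4.31-fold (edgeR adjusted p = 1.67e-11) and 4.26-fold (edgeR adjusted p = 2.78e-11). Elongator complex protein 2, Mve12G010420, of the complex that modifies the wobble uridine, was at 2.14, 1.38 and 1.12, then 1.92, 2.42 and 2.03, then 0.751, 0.415 and 0.640 CPM in the order of falling oxygen. The 2 mg/L libraries were the lowest, 3.51-fold under those at 4 mg/L (edgeR adjusted p = 0.000887).

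The wording of the descriptions may have left some synthetase genes aside. A further 15 genes carry a tRNA ligase EC number, 9 of them at a mean FPKM of at least 1. Of these 9, 4 are hypothetical proteins and 5 have descriptions of other proteins. The gene with the EC number of the alanine ligase, Mve06G002630, was at 40.2, 32.5 and 32.1 CPM at 7.5 mg/L, 93.7, 94.8 and 90.4 at 4 mg/L, then 56.8, 53.1 and 57.3 at 2 mg/L. Its groups were separate with 4 mg/L highest, unlike the described alanine gene Mve15G000680, and it rose 2.66-fold (edgeR adjusted p = 7.22e-11) and 1.60-fold (edgeR adjusted p = 1.28e-06). It was also the more abundant of the 2, at a mean FPKM of 19.2 against 2.11. The gene with the EC number of the asparagine ligase, Mve10G011830, the amino acid with no cytosolic gene among the 23, was at 116, 126 and 126, then 135, 152 and 139, then 139, 153 and 143 CPM. It rose 1.16-fold at 4 mg/L (edgeR adjusted p = 0.00354) and 1.18-fold at 2 mg/L (edgeR adjusted p = 0.00142). The gene with the methionine number, Mve15G009770, was at 4.77, 4.35 and 5.17, then 21.5, 14.7 and 16.7, then 6.62, 6.63 and 6.92 CPM, and rose 3.70-fold at 4 mg/L (edgeR adjusted p = 2.27e-08). The methionine number is also given to the ESF1 homolog Mve02G006440 and to genes described as uncharacterized protein K02A2.6-like. It does not by itself show a ligase. The gene with the arginine number, Mve06G008400, was at 9.33, 8.58 and 10.1, then 5.10, 5.30 and 2.53, then 8.97, 10.2 and 11.2 CPM, and fell 2.17-fold at 4 mg/L (edgeR adjusted p = 0.000298). These genes are not part of any count above.

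**Figure D4:**
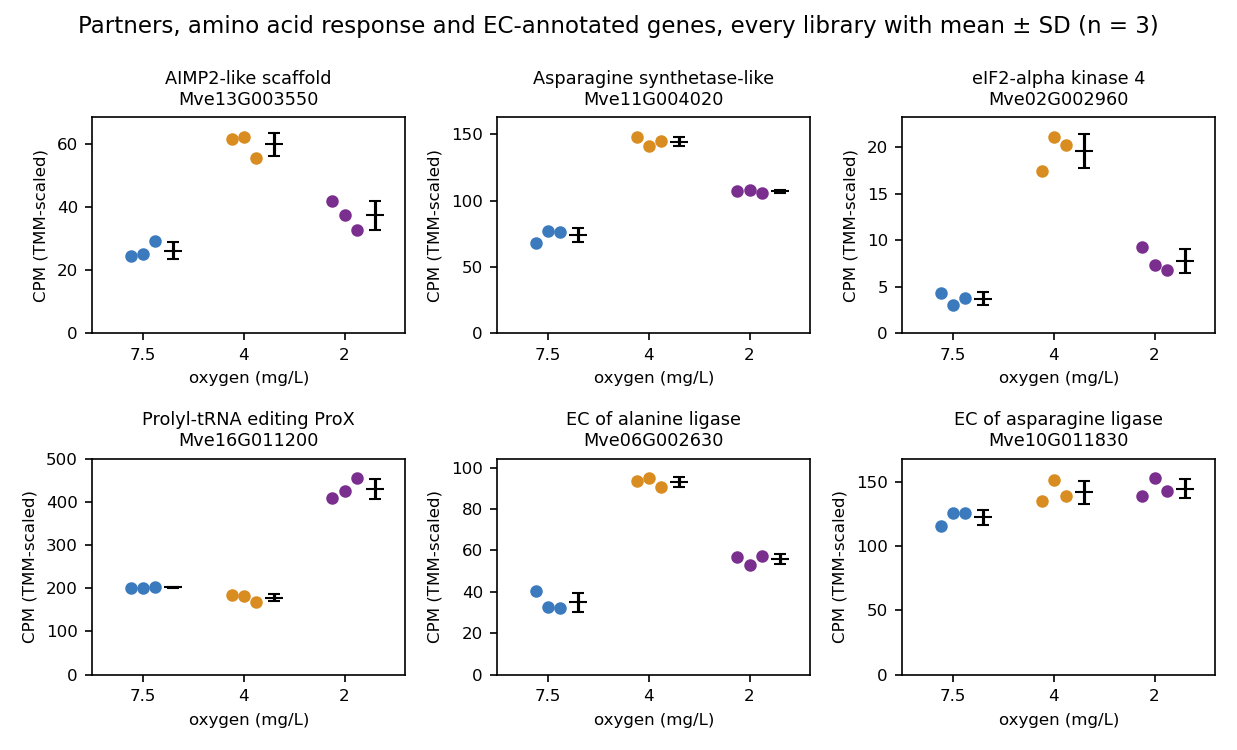
CPM (TMM-scaled) of the scaffold gene, asparagine synthetase, a GCN2 gene, ProX and the genes with the EC numbers of the alanine and asparagine ligases in every library by oxygen level, with the mean ± SD of 3. The scaffold, asparagine synthetase, GCN2 and alanine-number genes are highest at 4 mg/L, and ProX is highest at 2 mg/L, at 410 to 455.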

How the data were processed

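Gill mRNA was measured in 9 libraries, 3 per oxygen level, with paired reads of 150 bp per the labels' protocols. The authors' deposited table gives, per the file headers, a raw count and an FPKM value per gene and library, 18 columns, all used. Per the submitters' processing notes, cutadapt 1.9, HISAT2 2.2.1 and StringTie 2.1.6 were used; DESeq2 and edgeR are named without a role. The genome build and the use of strand in counting are not given in the sources used here, and coordinates are those of the deposited table. Counts were fitted with edgeR 4.0.16 (quasi-likelihood test, TMM, all 9 libraries, 1 coefficient per level) in R 4.3.3 over 15397 genes with a mean FPKM of at least 1, with Benjamini-Hochberg adjustment and a call at an adjusted p under 0.05. CPM is TMM-scaled; a standard error is the log2 fold change over the root of F. The code was tested on simulated data. Alternatives, 18 per comparison, used other scalings and filters, DESeq2 1.42.0, limma 3.58.1 on log2(FPKM + 1) and log2(FPKM + 0.1), 6 libraries only, a replicate block and each library left out.

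The members and lists were chosen with earlier results of these data known. The FPKM minimum was set on the mean over all 9 libraries, so a gene of low level could pass through the group where it was high. Values per library are given for the 5 cytosolic and 3 mitochondrial genes with the largest called changes in each comparison, the 2 most abundant of each class, amino acid pairs, the 2 largest called changes in each list, and asparagine synthetase, GCN2 and scaffold genes. Genes named outside this rule (the phenylalanine beta subunit, the 2 arginine genes, pyrroline-5-carboxylate reductase and the genes found by EC number) were chosen after their values were seen.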

Additional observations from a re-analysis of the deposited data

How the results depend on the processing

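At 4 mg/L, all 24 calls among the 35 genes were kept in every alternative that held the gene; at 2 mg/L 9 of 16 were kept, and between 2 and 4 mg/L 15 of 20. With library totals, the cytosolic median log2 change was 0.34 at 4 mg/L, -0.014 at 2 mg/L with 6 higher and 5 lower, and -0.22 between 2 and 4 mg/L with 2 higher; the mitochondrial class had a median of -0.35 at 2 mg/L with 0 higher and 5 lower, and -0.45 between 2 and 4 mg/L. With limma on log2(FPKM + 1) and log2(FPKM + 0.1), the cytosolic medians were 0.35 and 0.35 at 4 mg/L (2 lower with the larger pseudocount), -0.0071 and -0.0086 at 2 mg/L (7 and 7 higher, 6 and 5 lower), and -0.22 and -0.22 between 2 and 4 mg/L (2 and 2 higher); the mitochondrial medians were 0.20 and 0.24 at 4 mg/L, then -0.30 and -0.34 at 2 mg/L, with 0 higher and 5 lower in each. At a minimum FPKM of 5, which held 2 mitochondrial genes, that class had 0 higher, 1 lower and a median of -0.35 at 4 mg/L, 0 higher and 0 lower at 2 mg/L, and 1 higher, 0 lower and a median of 0.20 between 2 and 4 mg/L, where 2 cytosolic genes were higher. With no filter on level the mitochondrial median at 2 mg/L was -0.18, and 2 cytosolic genes were higher at 2 than at 4 mg/L. Differences at 2 mg/L from the control turned negative with library totals and both limma settings for serine Mve08G015270 (-0.18, -0.16 and -0.17), histidine Mve09G003520 (-0.20, -0.18 and -0.19) and leucine Mve09G006580 (-0.025, -0.019 and -0.020); of these only leucine had been called. These settings scale to all counts or all mapped fragments, and the cause of the shift was not tested.

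With a replicate block, 1 mitochondrial gene was lower at 2 mg/L (2 without the block) and 3 cytosolic genes were higher at 2 than at 4 mg/L (4 without it); the other 10 counts did not move. Deviations of same-numbered libraries correlated at -0.0264 to 0.00619 over 9 pairs, and 0 libraries correlated best with their own number in both other groups. No pairing by number was detected. Correlations over all genes cannot exclude a shared tank, day or batch, which the labels leave unstated. Leaving out 1 library gave, for the cytosolic class, 17 to 18 higher, 1 to 1 lower and medians of 0.41 to 0.47 at 4 mg/L, 8 to 12, 2 to 2 and 0.13 to 0.23 at 2 mg/L, and 2 to 4, 9 to 10 and -0.12 to -0.092 between 2 and 4 mg/L. For the mitochondrial class it gave 3 to 4, 3 to 3 and 0.21 to 0.38, then 0 to 2, 1 to 4 and -0.22 to -0.13, then 2 to 3, 3 to 4 and -0.35 to -0.20. At 2 mg/L the mitochondrial count of lower genes was 1 without control replicate 1 or 3 or 2 mg/L replicate 2 and 4 without 2 mg/L replicate 3; that of higher genes was 0 without control replicate 3 or 2 mg/L replicate 1 and 2 without 2 mg/L replicate 2. Raw counts as low as 25 limit the mitochondrial genes.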

Other observations

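The glycine--tRNA ligase gene Mve12G010810 stands head to head with a gene for a tRNA-modifying enzyme, the probable mitochondrial tRNA N6-adenosine threonylcarbamoyltransferase Mve12G010800 (chromosome 12, 37855588 to 37868079, minus strand), with 331 bp between their annotated ends; the pair was noticed after its values were seen. The modifying enzyme was at 1.61, 2.5 and 1.76 CPM at 7.5 mg/L, 4.42, 5.14 and 4.28 at 4 mg/L, then 1.77, 0.967 and 0.959 at 2 mg/L. Like the ligase it was highest at 4 mg/L, 2.35-fold over the control (edgeR adjusted p = 0.00184) and 3.71-fold over 2 mg/L (edgeR adjusted p = 6.79e-05). At 2 mg/L its difference from the control did not pass (edgeR adjusted p = 0.0867), whereas the ligase fell. Whether reads are shared between the 2 genes was not tested.

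Of the 5 genes with a tRNA ligase EC number and the description of another protein, the leucine-rich repeat-containing protein 47-like gene Mve11G012180, annotated with the phenylalanine number, was at 65.8, 59.8 and 67.3 CPM at 7.5 mg/L, 96.6, 99.5 and 107 at 4 mg/L, then 124, 122 and 130 at 2 mg/L. It rose at each step, 1.57-fold (edgeR adjusted p = 3.94e-08) and 1.94-fold (edgeR adjusted p = 3.68e-10) over the control. Pyrroline-5-carboxylate reductase 2-like, Mve18G000540, the last enzyme of proline synthesis, went down at each step, with 27.2, 25.7 and 23.5 CPM at 7.5 mg/L, 14.0, 18 and 16.9 at 4 mg/L, then 9.62, 11.1 and 8.67 at 2 mg/L. Its fall was 1.57-fold (edgeR adjusted p = 0.000196) and 2.6-fold (edgeR adjusted p = 8.65e-08).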
